A study of Mus musculus with 3 samples.

Results

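The genes of the major histocompatibility complex (MHC) class II pathway were followed in LPS-treated RAW 264.7 cells, a macrophage line of BALB/c origin, through 7 genes taken by symbol from the 54331 features of the deposited table. These were the classical chains H2-Aa, H2-Ab1 and H2-Eb1, the peptide-editing chains H2-DMa and H2-DMb1, the invariant chain Cd74 and the transactivator Ciita. All 7 had 1 row each. There were 3 libraries of polyadenylated RNA from cells treated for 5 h with 100 ng/mL of lipopolysaccharide (LPS), a cell-wall component of bacteria that TLR4 senses. The control group was 1 library with a control shRNA, whose genotype field reads wild-type, and the GIV-depleted group was 2 libraries, each with a different shRNA against GIV (Girdin, encoded by Ccdc88a). They are called the sh1-labelled and the sh2-labelled library after their titles. All libraries came from the same line under LPS, none without LPS was analysed here, and nothing in the labels says that they came from separate experiments. The series title states dampening of TLR4 signalling by GIV as the subject.

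MHC class II molecules are heterodimers of an alpha and a beta chain that carry peptides from the endosomal route to the surface, where CD4+ T cells read them. The chains assemble in the endoplasmic reticulum on the invariant chain, which blocks the peptide groove and directs the complex to endosomes. There, cathepsins trim the invariant chain to a short fragment, and H2-DM exchanges that fragment for an antigenic peptide. Transcription of the chains depends on CIITA, which binds no DNA itself and is recruited by factors bound to paired promoter elements, the X box (bound by the RFX complex) and the Y box (a CCAAT sequence bound by NF-Y). Macrophages classically gain CIITA and class II after interferon gamma. In C57BL/6 mice the E alpha gene is inactive, whereas BALB/c mice make both the A and the E molecule.

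Promoter sequences are shown because paired X and Y elements are a known feature of class II promoters, and they include genes with higher values (H2-Aa, H2-Eb1) and with lower or similar values (H2-DMb1, H2-DMa) in the libraries labelled GIV-depleted. The RefSeq promoter table (GRCm38.p6, 250 bases before to 50 after each start, on the strand of the gene, 5′ to 3′) held 4 of the 7 genes. Capitals mark every match on either strand to CTNGNAAC, an X box core, and to CCAAT, the Y box, which reads ATTGG on the other strand. These letters were chosen with the class II promoters in view.
H2-Aa: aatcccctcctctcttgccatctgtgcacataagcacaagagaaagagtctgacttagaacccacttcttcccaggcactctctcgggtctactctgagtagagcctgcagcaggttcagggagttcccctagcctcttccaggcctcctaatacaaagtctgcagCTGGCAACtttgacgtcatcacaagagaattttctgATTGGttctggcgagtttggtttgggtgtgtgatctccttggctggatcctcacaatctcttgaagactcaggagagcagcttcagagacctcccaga
H2-Eb1: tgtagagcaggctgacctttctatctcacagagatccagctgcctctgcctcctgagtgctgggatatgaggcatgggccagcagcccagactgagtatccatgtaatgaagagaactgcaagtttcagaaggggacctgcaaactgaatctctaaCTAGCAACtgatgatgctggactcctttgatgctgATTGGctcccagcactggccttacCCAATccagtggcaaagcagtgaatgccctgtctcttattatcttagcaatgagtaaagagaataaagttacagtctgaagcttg
H2-DMb1: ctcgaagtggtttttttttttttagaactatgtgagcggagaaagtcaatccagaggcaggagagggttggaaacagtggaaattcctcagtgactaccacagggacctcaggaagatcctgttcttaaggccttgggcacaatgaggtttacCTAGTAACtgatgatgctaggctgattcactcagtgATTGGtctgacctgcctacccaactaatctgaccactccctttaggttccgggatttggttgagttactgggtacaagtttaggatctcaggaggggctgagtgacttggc
H2-DMa: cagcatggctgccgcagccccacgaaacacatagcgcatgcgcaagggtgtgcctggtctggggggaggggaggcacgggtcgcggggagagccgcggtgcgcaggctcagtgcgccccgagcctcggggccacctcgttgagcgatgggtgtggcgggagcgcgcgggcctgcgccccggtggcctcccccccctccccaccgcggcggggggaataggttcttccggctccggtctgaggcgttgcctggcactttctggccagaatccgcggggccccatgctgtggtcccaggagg
The windows are chr17:34287774-34288073 (minus strand) for H2-Aa, chr17:34305617-34305916 (plus) for H2-Eb1, chr17:34152941-34153240 (plus) for H2-DMb1 and chr17:34122582-34122881 (plus) for H2-DMa.

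In H2-Aa, H2-Eb1 and H2-DMb1 the first element lay upstream of ATTGG on the strand of the gene. The bases between them numbered 28, 27 and 28 in that order. The window shown for H2-DMa held neither element, and a second start listed for that gene had a CCAAT match alone. Both windows lie inside the annotated span of the gene (34119541 to 34139101), so bases before its annotated start were not searched. Among all 32851 promoters, CTNGNAAC occurred in 13.2% and CCAAT in 37.4%, on either strand and and no match of one overlapped a match of the other in the windows shown. The pair in this order with 20 to 35 bases between, on either strand, occurred in 61 promoters, or 0.186%. Of 8 class II chain genes searched, the pair was found in 4, the other one being H2-Ob with 25 bases between. A match is a description of letters and does not show binding in these cells.

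Values in the table are normalized counts made by the authors. The commonest lowest value was 0.931 in the control and 1.11 and 0.966 in the sh1- and sh2-labelled libraries, so a value near 1 stands for about 1 read, and dividing a value by this step gives approximate reads. Column totals ran from 47349097 to 49756670. The targeted gene Ccdc88a stood at 2580 (control), 1734 (sh1-labelled) and 2561 (sh2-labelled) normalized counts, so the sh2-labelled library goes against its label at the level of mRNA. Every direction given for both libraries rests in part on it. Mitochondrially encoded transcripts took 1.43% of the control total, 0.995% of the sh1-labelled and 1.14% of the sh2-labelled one. All 12 macrophage markers examined had a mean value of at least 10. Their sum was 502562 in the control, 385863 in the sh1-labelled and 409746 in the sh2-labelled library. Of the 12, 8 were below the control in both other libraries and 0 above it in both. The shares among the 13877 features tested further on were 35.2% and 34.9%. Lyz2, which encodes lysozyme, had 199781, 121997 and 138145, and made up most of the fall of the sum in both libraries. Adgre1, Itgam and C5ar1 were above the control in the sh2-labelled library alone, and Cd14 in the sh1-labelled one alone. The part of these differences in the results below was not tested.

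H2-Aa encodes the alpha chain of the A molecule (ENSMUSG00000036594.15, chromosome 17, 34282744 to 34287823, GRCm38). Its value was 1.97 normalized counts for the control, 16.5 for the sh1-labelled and 75.5 for the sh2-labelled library. These correspond to about 2, 15 and 78 reads. The sh2-labelled library was highest and the control lowest. From the approximate reads the ratio to the control was 8.95 for sh1 (95% exact interval 2.08 to 80.7) and 40.5 for sh2 (10.8 to 340), intervals that cover counting error alone.

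The log2 difference of H2-Aa, on the scale of log2(value + 1), was 3.62 (SE 1.06, 2 libraries against 1). It was 2.56 for sh1 and 4.69 for sh2, where 3.98% and 4.78% of tested features were at least 2-fold above the control. The unadjusted p was 0.026 and the adjusted p 0.65 in limma, a linear model fitted to all features, so the difference did not pass. The share of the 13877 tested features that passed an adjusted p of 0.05 was 0%, and 4.52% were higher at an unadjusted p under 0.05. By size of difference H2-Aa ranked 83 of the 13877. The sh2-labelled library stood 2.13 above the sh1-labelled one, a value without replicates, and 3.65% of features were at least 2-fold higher in it.

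H2-Ab1 encodes the partner beta chain of the A molecule (ENSMUSG00000073421.6, chromosome 17, 34257689 to 34269419). It had 1.65, 7.49 and 13.9 normalized counts, with the control first and the sh1- and sh2-labelled libraries after it as in every such triple from here on, or about 2, 7 and 14 reads. Its libraries stood in the same order as for H2-Aa, at lower values. The read ratio to the control was 4.18 for sh1, with an interval of 0.795 to 41.2 that spans equality, and 7.26 for sh2, with an interval of 1.67 to 65.8. Its mean value of 7.67 kept it out of the main test, which took features with a mean of at least 10. Fitted without that filter, its difference of 2.09 (SE 0.59) had an adjusted p of 0.53 in limma.

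H2-Eb1 encodes the beta chain of the E molecule (ENSMUSG00000060586.11, chromosome 17, 34305867 to 34316674). It had 3.77, 9.01 and 27.4 normalized counts, about 4, 8 and 28 reads. Again the sh2-labelled library was highest and the control lowest. The read ratio was 2.39 for sh1 (interval 0.64 to 10.8, spanning equality) and 7.26 for sh2 (2.54 to 28.5). It differed from the control by 1.82 on the log2 scale (SE 0.87, adjusted p = 0.74 in limma).

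Its alpha chain partner is listed in the annotation as H2-Ea-ps, a polymorphic pseudogene in the C57BL/6J reference. It is not among the 7 genes and belongs to the wider pathway list described further on. It had 1.23, 4.95 and 30.5 normalized counts. About 1, 4 and 32 reads stood behind these, and its log2 difference of 2.62 (SE 1.22) had an adjusted p of 0.74 in limma. The read ratio was 4.77 for sh1 (interval 0.472 to 235, spanning equality) and 33.2 for sh2 (5.54 to 1350). Its control value of 1.23 was rounded down to about 1 read, so both ratios are higher than those of the normalized counts themselves. Its mean value of 12.2 passed the filter through the sh2-labelled library.

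H2-DMa (ENSMUSG00000037649.10, chromosome 17, 34119541 to 34139101) encodes the alpha chain of the peptide editor. It had 189, 165 and 210 normalized counts. The control lay between the other libraries, with a log2 difference of -0.02 (SE 0.30, adjusted p = 0.99 in limma). That sign turned with a GC and length trend removed (0.047). H2-DMb1 (ENSMUSG00000079547.4, chromosome 17, 34153072 to 34160230), a beta chain of the editor, had 7.54 and 1.55 normalized counts for the control and the sh2-labelled library, and is listed at 0 for the sh1-labelled one. It was the 1 gene of the 7 below the control in both other libraries. About 8 reads in the control against 2 in the sh2-labelled library gave a ratio of 0.259 with an interval of 0.0268 to 1.3. Its values are uncertain, because 31.4% of the 31-base words of its annotated transcripts also occur in those of H2-DMb2, a second beta chain gene. H2-DMb2 had 17.8, 16.7 and 15.4. For the other 6 genes the share of words found in any other gene was at most 1.41%.

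Cd74 (ENSMUSG00000024610.15, chromosome 18, 60803848 to 60812652) encodes the invariant chain, which is also a surface receptor for the cytokine MIF. It had 8122, 8456 and 8596 normalized counts. The 3 values lay close together, with a log2 difference of 0.07 (SE 0.12, adjusted p = 0.92 in limma). A difference that misses the threshold does not show equal expression. Ciita (ENSMUSG00000022504.10, chromosome 16, 10480059 to 10528418), the master transactivator, is listed at 0 for the control and had 2.35 and 4.58 in the other libraries, about 2 and 5 reads. All its values were thus within a few reads of 0, no fold is given against a value listed at 0, and the fit without a filter gave an adjusted p of 0.49 in limma.

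**Figure D1:**
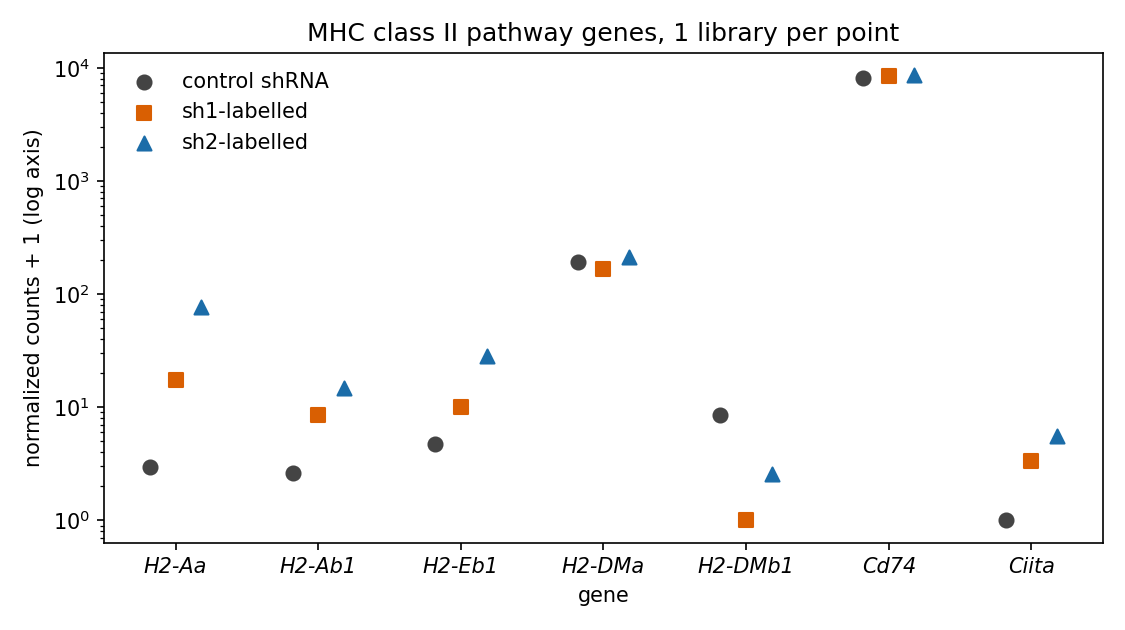
Normalized counts plus 1 (log axis) of the 7 class II pathway genes, with 1 point per library. H2-Aa, H2-Ab1, H2-Eb1 and Ciita stand in the order control, sh1, sh2, whereas the Cd74 points (8122 to 8596) nearly coincide and H2-DMb1 is highest in the control at 7.54.

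Across the 7 genes, 5 had values above the control in both libraries labelled GIV-depleted and 1 had values below it in both. Among all features above 0 in at least 1 library, 29.6% were above the control in both and 33.1% below it in both, and of the tested features 34.9% were above. At least 2-fold above the control in both libraries, on the log2(value + 1) scale, were 3 of the 6 genes with a control value above 0, namely H2-Aa, H2-Ab1 and H2-Eb1. Over all features, with those listed at 0 in the control included, the share was 2.31% of tested features and 4.52% without the filter. H2-Ab1 lies outside the tested set. With a pseudocount of 5 the count among the 6 genes was 1, H2-Aa. Both comparisons share the single control, whose low values of about 0 to 4 reads enter each of them. Of the 7, 4 passed the filter on mean value, and H2-Aa and H2-Eb1 did so through the libraries in which they were high. None of the 4 passed the adjusted p, and 1, H2-Aa, had an unadjusted p under 0.05.

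**Figure D2:**
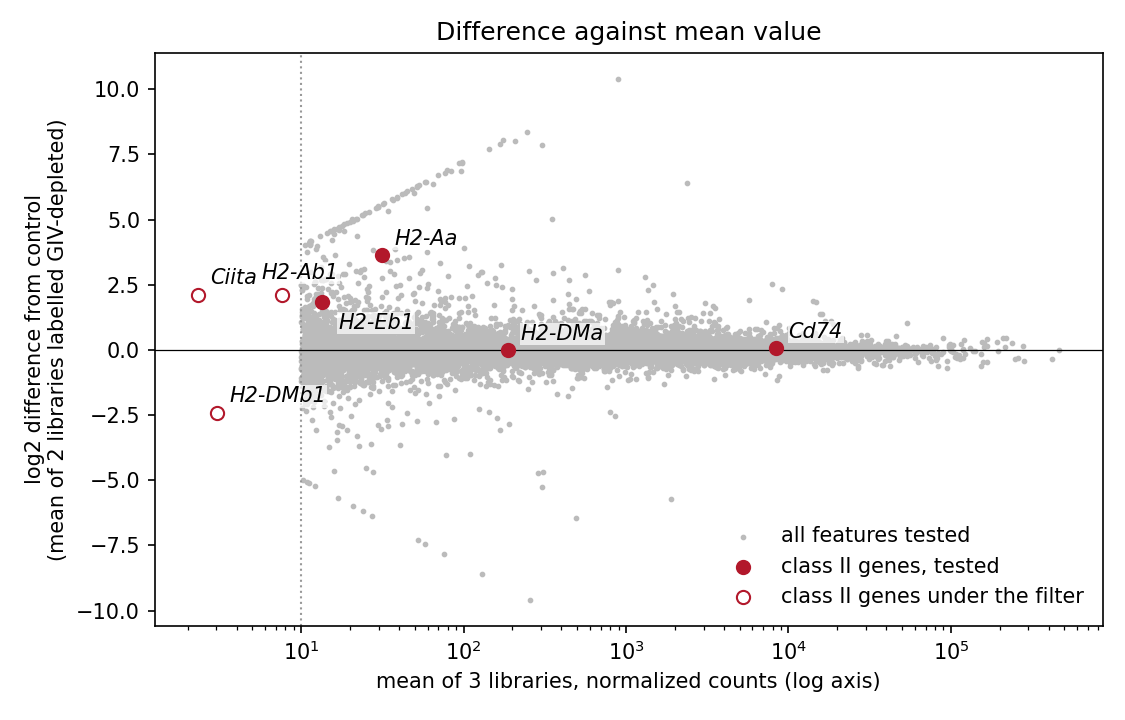
Mean log2 difference of the 2 libraries labelled GIV-depleted from the control against the mean of the 3 libraries in normalized counts (log axis), for the 13877 tested features (grey) and the class II genes (red, open where under the filter marked by the dotted line). H2-Aa at 3.62 lies at the left, where the bulk of all features spreads most around 0, and Cd74 at 0.07 lies at the right, where it is narrow. The differences of Ciita and H2-DMb1 involve values listed at 0.

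Per kilobase of the longest annotated coding transcript, Cd74 was the highest of the 7 in every library, at 5760 normalized counts per kb in the control, 5997 in the sh1-labelled and 6097 in the sh2-labelled library. H2-DMa was second in every library, at 94.5, 82.5 and 105 per kb. H2-Aa had 1.75, 14.7 and 66.9 per kb, so that on this scale the level of Cd74 was 3290 times that of H2-Aa in the control, 409 times in the sh1-labelled and 91.1 times in the sh2-labelled library. In the control the 3 classical chains lay between 1.36 (H2-Ab1) and 2.26 (H2-Eb1) per kb, an order that rests on about 2 to 4 reads each. In the sh2-labelled library H2-Aa stood above H2-Eb1 (16.4 per kb) and H2-Ab1 (11.4 per kb). Ciita was at 0.762 per kb or below throughout. Lengths come from the C57BL/6J annotation, and reads from BALB/c alleles of these polymorphic genes may have been assigned to it less completely, in all 3 libraries alike, which was not tested.

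**Figure D3:**
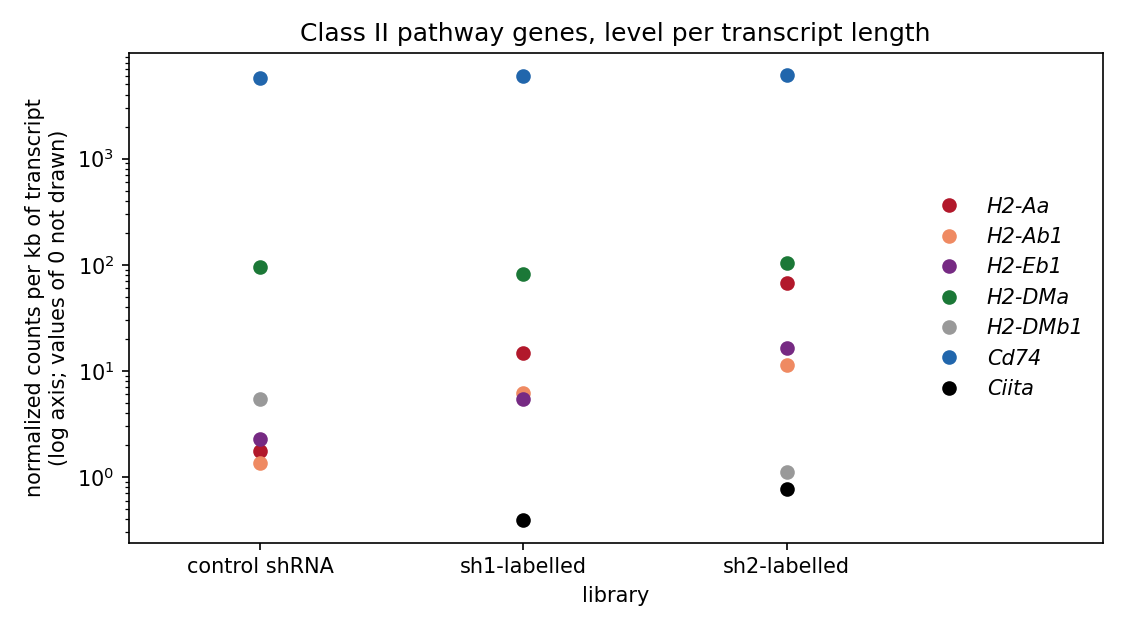
Normalized counts per kilobase of transcript (log axis) of the 7 genes in each library, with values of 0 not drawn. Cd74 lies between 5760 and 6097 per kb while H2-Aa goes from 1.75 in the control to 66.9 in the sh2-labelled library, under H2-DMa at 105.

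Markers of B cells and dendritic cells, which carry class II constitutively, and of T cells were examined in the same libraries. Of 12 B cell markers, Blk and Pou2af1 were among those listed at 0 in all 3 libraries, 4 were above the control in both other libraries and 1 below it in both, and the summed value was 1046, 1774 and 2022. Most of that sum was Ighm, the mu heavy chain, with 721, 1422 and 1671. Ms4a1, which encodes CD20, had 6.56, 8.87 and 20.2, whereas the B-lineage factor Pax5 had 138, 160 and 113. Of 12 dendritic cell markers, Flt3, Batf3, Cd209a, Dpp4 and Siglech were listed at 0 throughout, 5 were above the control in both and 1 below it in both, and the sum was 1134, 1325 and 1190. Most of that sum in every library came from a single marker, which is not reported here. Cd24a had 5.13, 38.4 and 62.7, in the same order of libraries as H2-Aa, and Zbtb46, a factor of the dendritic lineage, had 14.7, 17.5 and 34.9. Xcr1 and Clec9a, receptors of one dendritic cell type, had 383, 278 and 320 and 6.03, 15.4 and 1.03. Among 10 T cell markers, Cd3e, Cd2 and Trac were listed at 0, 4 were above the control in both and 2 below it in both, and the sum was 1177, 1099 and 1103. Nearly all of that sum was Lck, a kinase of T cells, with 1162, 1059 and 1011. Cd5, a surface receptor of T and some B cells, had 11.3, 34.8 and 77.3. Across all features with a value above 0, 29.6% were above the control in both libraries and 33.1% below it in both. These shares leave out features at 0 in all 3 libraries. The marker lists include such genes, 3 of B cells, 5 of dendritic cells and 3 of T cells. The part of other cells in the class II values was not tested, and in bulk RNA more cells of a type cannot be told apart from more RNA per cell.

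The other genes of the pathway were taken from a list of 43 genes, of which 39 were tested. None passed the adjusted p. At an unadjusted p under 0.05 there were 2 higher and 6 lower, where 4.52% and 2.42% of all tested features were called. Above the control in both libraries were 11, and below it in both 20, against 34.9% and 35.2% of all tested features. The median log2 difference was -0.14, against -0.0015 over all tested features. Under 5 other scalings those above numbered 9 to 12 and those below 19 to 24.

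Of 8 genes of endosomal processing, mostly proteases, 6 were below the control in both libraries, where 35.2% of all tested features were. Both comparisons share the single control. Ctss, which makes the final cut of the invariant chain in professional antigen-presenting cells, had 49524, 41796 and 39981 normalized counts (difference -0.28, SE 0.13). Ctsl had 43533, 33255 and 27314, with a difference of -0.53 (SE 0.18). Ctsd had 77016, 55025 and 56244, and Lgmn, the asparaginyl endopeptidase, had 18575, 14530 and 13740. Ifi30, the reductase that opens disulphide bonds of antigens, had 7751, 5858 and 6652. The adjusted p of these 5 genes in limma lay between 0.65 and 0.75. Ctsh, an aminopeptidase, stood on the other side with 10.3, 20.1 and 62.4, the same order of libraries as the classical chains (difference 1.69, SE 0.83, adjusted p = 0.75 in limma).

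The factors that bind class II promoters were present in every library. Rfx5, the DNA-binding subunit of the RFX complex, had 1576, 1664 and 1111 normalized counts (adjusted p = 0.90 in limma). Of the 7 promoter-binding factors 1 was above the control in both libraries and 3 below it, where 34.9% and 35.2% of all tested features were. Among acetyltransferases recruited by CIITA, Crebbp had 846, 2215 and 2214, a log2 difference of 1.39 (SE 0.14). That was the lowest p of the list, unadjusted at 0.00062, with an adjusted p of 0.19 in limma. Kat2b (PCAF) had 3029, 2118 and 1568, a difference of -0.73 (SE 0.23, adjusted p = 0.69 in limma).

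Among further transcription factors of the list, Irf1, which acts at the interferon-responsive Ciita promoter, had 5652, 3925 and 3718 normalized counts, a difference of -0.56 (SE 0.13, adjusted p = 0.52 in limma). Of the 7 genes of the interferon gamma route, 1 was above the control in both libraries and 4 below it. The shares of all tested features were 34.9% and 35.2%. Irf4, a factor of dendritic and B cells, had 86.1, 295 and 214, both above the control (1.53, SE 0.33, adjusted p = 0.51 in limma). Prdm1 (Blimp-1), a repressor of Ciita in plasma cells, had 16.2, 28.7 and 33.6.

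Among genes that limit class II at the surface, March8, a ubiquitin ligase of the MARCH family, had 1720, 2576 and 5429 (1.12, SE 0.48, adjusted p = 0.73 in limma), and Il10, a cytokine that lowers class II display, had 8907, 6047 and 5109 (-0.68, SE 0.16, adjusted p = 0.54 in limma). Nlrc5, the related transactivator of class I genes, had 14086, 13534 and 11136, far above the values of Ciita.

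**Figure D4:**
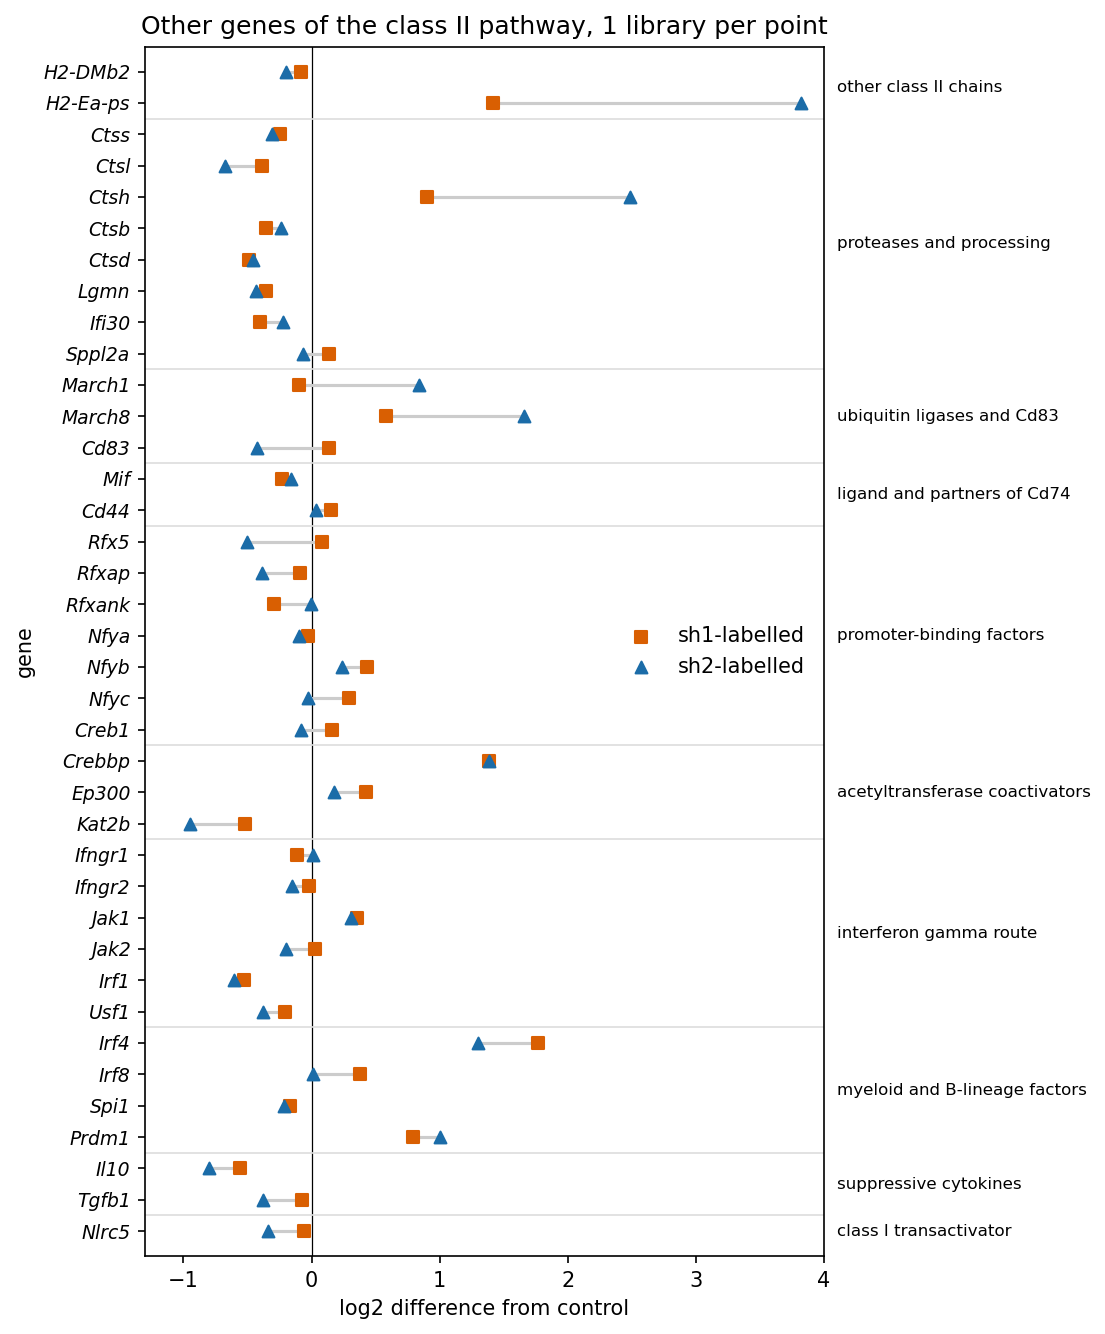
Log2 differences from the control of tested genes of the wider class II pathway that are reported here, grouped by role, with 1 point per library and a grey line joining the 2 libraries labelled GIV-depleted. H2-Ea-ps, Ctsh, Irf4, Crebbp and March8 lie furthest to the right, and most cathepsins have both points to the left of 0.

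For each tested gene of the 7, the nearest patterns were sought among 11610 other protein-coding features, by Euclidean distance between the pairs of log2 differences over the 3 libraries. For H2-Aa they were 3425401B19Rik (distance 0.20), with 0 listed for the control and then 5.56 and 27.0 normalized counts, and Apold1 (0.63), with 0.92, 8.80 and 73.9. For H2-Eb1 they were Ctsh (0.19) and Ppp1r32 (0.21), the latter with 2.90, 7.86 and 25.3. For H2-DMa they were Adgre1, which encodes the macrophage marker F4/80, and Aurka, at distances of 0.0069 and 0.0081. For Cd74 they were Dnm1l and Map2k5, at 0.0030 and 0.0031. Near a difference of 0 many features lie close together, so the last 4 names mark no particular likeness. The first 4 names mark none either, because the differences of H2-Aa and H2-Eb1 rest on about 2 and 4 control reads. Both genes also passed the filter through the libraries in which they were high.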

How the data were processed

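RNA was sequenced in 3 libraries, from stranded mRNA libraries per the labels' protocols. The table deposited by the authors gives normalized counts, treated as a signal. Per the submitters' processing notes, Salmon, DESeq, DESeq2 and GRCm38 were used. Their versions and roles and the annotation release are not stated there. Between 86.1% and 86.4% of low values lay within 0.1 of a whole multiple of each library's step, too few for a count model. Approximate reads are values divided by that step and rounded.

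Identifiers were matched without version to GENCODE M21 (GRCm38), and 54097 of 54331 gave a symbol. Features with a mean of at least 10 were fitted on log2(value + 1) in R 4.3.3 by limma 3.58.1 (linear fit, trended empirical Bayes, two-sided), and p-values were Benjamini-Hochberg adjusted over all 13877. A pseudocount of 1 understates changes of low genes. With 1 residual degree of freedom, the control, a single library, was taken to vary like the other 2. Each SE and p-value blends the gene's spread between 2 libraries that differ in shRNA with a trend over all features. Neither therefore measures the gene's own spread alone, nor the spread between repeats of the same shRNA. Single libraries have no test and were counted at 2-fold. Intervals of read ratios are exact (Clopper-Pearson) on approximate reads and cover counting error only. Rounding to whole reads is not covered and shifts a ratio most where the control reads are fewest.

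The 7 genes and the lists were chosen with earlier results of these data known. The pathway list held 46 symbols, 3 of them alternative names without a row. Named from it were the 12 tested genes with the largest differences, plus Irf1, Rfx5, Ctss, Nlrc5 and Ifi30, H2-DMb2 being added for its shared sequence. Which markers to name was decided with their values known. Some genes of the lists are not reported here. Alternatives covered pseudocount, filter, scaling, variance trend, the fold rule and omission of either sh-labelled GIV library.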

Additional observations from a re-analysis of the deposited data

How the results depend on the processing

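Under 9 alternatives of pseudocount, scaling, filter and variance trend the log2 difference ranged from 2.58 to 3.86 for H2-Aa, from 1.21 to 2.32 for H2-Ab1, from 1.28 to 1.93 for H2-Eb1, from -2.99 to -1.13 for H2-DMb1, from 0.05 to 0.19 for Cd74 and from 0.75 to 2.93 for Ciita. Their directions held in these alternatives, but not all of them could have turned a direction. Median-of-ratios scaling, the lack of a filter and the lack of a variance trend left each difference as in the main fit. A change of pseudocount cannot turn a direction that both libraries share. H2-DMa ranged from -0.08 to 0.05 and turned positive with the GC and length trend removed (0.047). Without replicates 1 and 2 of the GIV-depleted group in turn, it was 0.15 and -0.19, and the difference of H2-Aa was 4.69 and 2.56. No such 1-against-1 comparison has a test. The adjusted p of H2-Aa in limma ran from 0.58 to 0.73, that of H2-Eb1 from 0.70 to 0.82 and that of Cd74 from 0.77 to 0.95. Over all features, limma called 0, and 1 with equal totals, equal upper quartiles, the GC and length trend removed or a mean of at least 50. At an unadjusted p under 0.05 it called 627 features higher and 336 lower. At 2-fold, 960 features differed for sh1, 1016 for sh2 and 865 between them. These became 5419, 4344 and 5165 without a filter, 382, 424 and 358 at a mean of at least 50, and 2314, 2384 and 2151 at 1.5-fold. No paired analysis was possible because there was 1 control library. Depth limits Ciita, H2-DMb1 and the control values of the classical chains, which rest on 0 to 8 reads.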

Other observations

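The promoter pair of CTNGNAAC and ATTGG was also found outside the class II genes. Its 61 promoters belonged to 58 genes, of which 47 had a symbol in the table and 23 passed the filter on mean value. Of these 23, 11 lay above the control in both libraries labelled GIV-depleted and 8 below it in both, where 34.9% and 35.2% of all tested features did. Their median log2 difference was 0.06. H2-Aa and H2-Eb1, whose promoters set the search and which passed the filter through the libraries where they were high, are among the 23. Apart from these, the highest was Cyth1, an exchange factor for ARF GTPases, with a log2 difference of 0.82 and an adjusted p of 0.58 in limma, and the lowest was H2-M2, a class I-like gene of the MHC, with -0.83 and an adjusted p of 0.75. Rplp0, a ribosomal protein gene, and Calr, which encodes calreticulin, had 0.09 and 0.06. The list was drawn up with the class II promoters in view and carries no test.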
